A study of Mus musculus with 2 samples.

Results

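The genes described are 10 members of the p53 response and of p53-driven apoptosis, namely Cdkn1a, Mdm2, Perp, Trp53inp1, Ccng1, Trp53, Bax, Pmaip1, Bbc3 and Sesn2. They were followed in newborn mouse cerebral cortex on Affymetrix expression arrays. The set was selected on the difference of Cdkn1a between the same 2 arrays, with the other members placed beside it as known p53 genes, so its values are a description and carry no test. Every probe set that the platform annotation gives to exactly 1 of these genes was taken, which found 15 probe sets for 8 of the 10 genes, among 18193 named genes in all. Trp53 and Bax were not analysed here.

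The study compared 2 pools of cortical RNA. The double knockout pool is labelled MRTF-A-/-;MRTF-BF/F;GFAP-Cre, and the control pool is labelled MRTFA-/-;MRTF-BFlox/Flox. Both pools were therefore labelled null for Mrtfa, and what separates them by label is the Cre transgene and the loss of floxed Mrtfb that it brings. Mrtfa and Mrtfb encode partners through which SRF, a transcription factor of cytoskeletal genes, activates transcription. Cre is named for the GFAP promoter, so by its name recombination is limited to cells in which that promoter is or was active. Each pool held RNA of 3 animals at postnatal day 0, although 1 description of the double knockout sample gives day 1, and each was read on 1 array. There is no replicate, and pooling hides how the animals of a group differ. The loss of Mrtfa, shared by both labels, was not compared here, although the Mrtfa readings given below differed between the pools.

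p53, encoded by Trp53, is a transcription factor that is kept low by the ubiquitin ligase Mdm2 and accumulates after DNA damage and other stress. It switches on genes that stop the cell cycle, among them Cdkn1a, and genes that permeabilise mitochondria and start apoptosis, among them Bax, Bbc3 and Pmaip1. Mdm2 is itself a target, which closes a feedback loop. In the developing cortex this pathway is known for removing neural progenitors that carry damaged DNA, and Cdkn1a also answers to factors other than p53.

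The p53 response element joins a pair of 10-base half-sites, and sequence just upstream of some of these genes holds close matches to it. RefSeq promoter windows (build GRCm38.p6, 250 bases before to 50 after each annotated start) were used for 7 of the 10 members, in 10 windows. They were searched for the 20-base p53 response element consensus with no gap between the half-sites. Cdkn1a and Ccng1 came closest, each with 1 of 20 bases off the consensus, a match held by 0.0883% of all 32851 windows. They are shown because the array differences of these genes stood far apart, at 0.79 log2 for Cdkn1a and -0.03 for Ccng1. The Cdkn1a element lies 51 to 32 bases before the upstream of its 2 annotated starts and departs from the consensus at position 11. The Ccng1 element lies 195 to 176 bases before the start and departs at position 5, both counted from 1 at the 5′ end of the element. Capitals mark the element in the first and last sequence, each of them the 250 bases before the start, read 5′ to 3′ on the gene's strand. The middle sequence precedes the other Cdkn1a start, 2790 bases downstream, and its capitals mark GGGCGG, the GC box read on both strands, and TATAA, the core of a TATA box.
Cdkn1a, upstream start, chr17:29090729-29090978, plus strand: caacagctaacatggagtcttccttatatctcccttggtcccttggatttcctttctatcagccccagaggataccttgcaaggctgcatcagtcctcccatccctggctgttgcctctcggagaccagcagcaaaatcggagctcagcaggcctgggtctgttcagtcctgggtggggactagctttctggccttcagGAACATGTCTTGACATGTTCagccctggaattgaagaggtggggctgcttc
Cdkn1a, downstream start, chr17:29093519-29093768, plus strand: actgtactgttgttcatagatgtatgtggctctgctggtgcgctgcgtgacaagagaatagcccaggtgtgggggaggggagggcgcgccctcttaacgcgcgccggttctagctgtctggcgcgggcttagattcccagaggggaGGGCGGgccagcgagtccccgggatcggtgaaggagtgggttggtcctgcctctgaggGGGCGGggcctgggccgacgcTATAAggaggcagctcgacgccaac
Ccng1, chr11:40755287-40755536, minus strand: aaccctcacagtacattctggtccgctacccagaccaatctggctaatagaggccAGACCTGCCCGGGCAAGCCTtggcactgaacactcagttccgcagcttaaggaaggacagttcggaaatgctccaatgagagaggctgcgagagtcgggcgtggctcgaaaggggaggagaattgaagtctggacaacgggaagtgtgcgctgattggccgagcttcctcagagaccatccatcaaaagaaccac

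The downstream Cdkn1a window held 2 GC boxes and a TATAA that begins 25 bases before the start, and its best p53 match had 5 bases off. GGGCGG on either strand was present in 35.7% of all windows, and TATAA within the 50 bases before the start in 4.93%. The capitalised motifs do not overlap the best p53 match of their window. For Bbc3 the best match had 3 bases off the consensus, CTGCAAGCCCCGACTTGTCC, and lay 97 to 78 bases before its first annotated start on chromosome 7. Matches with 3 or fewer bases off were held by 6.29% of all windows, and the windows of Trp53 and Bax had them as well. The best matches of Mdm2 and Sesn2 had 5 bases off. The CArG box, the element that SRF binds, was in 0 of the 10 member windows used and in 1.63% of all windows. A match here is a string of letters and no measured site, and these windows leave out introns and distal sequence. Windows of Perp, Trp53inp1 and Pmaip1 are not used here.

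The deposited values are MAS5 signals on a linear scale. Signals under a floor of 178.9, the median of all non-control signals, were treated as not measured. Of the 15 member probe sets 10 reached the floor on both arrays, 1 on the double knockout array alone and 4 on neither. Of the 8 genes with a probe set 7 were measured, and Pmaip1 stayed under the floor. Differences are double knockout minus control on the log2 scale after centring, and the value of a gene comes from its brightest probe set. Across all genes with several bright probe sets, the SD between probe sets of 1 gene was 0.18 log2 (4858 genes). It describes probe design and not animals.

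**Figure D1:**
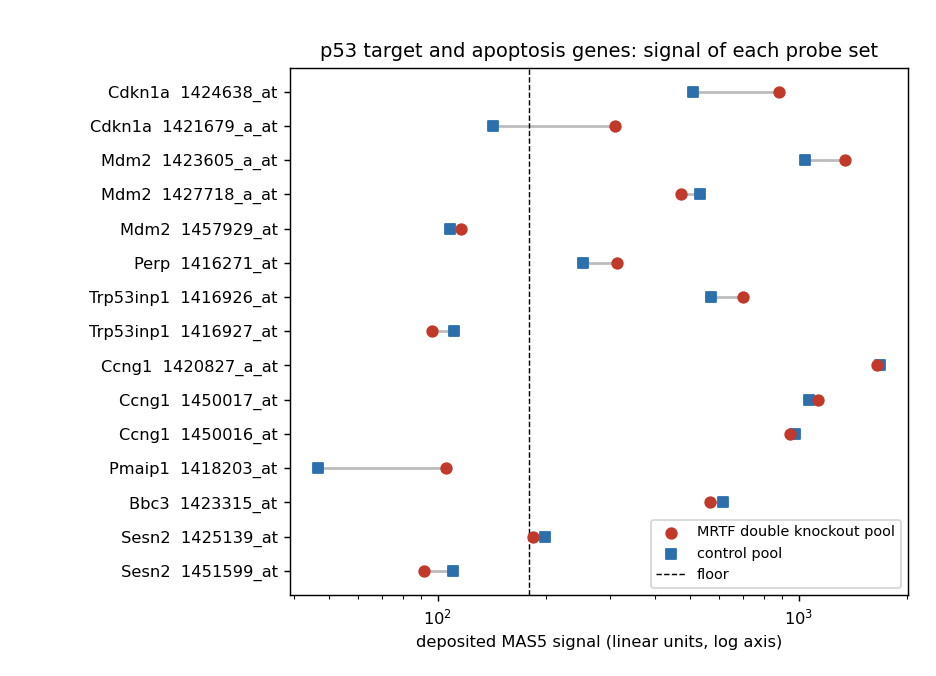
Deposited MAS5 signal (log axis) of each of the 15 member probe sets in the double knockout pool (red circles) and the control pool (blue squares), with the floor of 178.9 as a dashed line and 1 array per pool. Both Cdkn1a probe sets sit higher in the double knockout pool, while the 3 Ccng1 probe sets nearly coincide between pools.

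Cdkn1a, which encodes the cyclin-dependent kinase inhibitor p21, had the largest difference among the members measured at the main floor. Its brighter probe set, 1424638_at, read 881.4 in the double knockout pool and 509.2 in the control pool, which is 1.73-fold higher, or 0.79 log2. The other probe set, 1421679_a_at, read 309.9 in the double knockout pool and 142.7 in the control pool. The control reading of that probe set lay under the floor, so the difference is a bound, at least 1.73-fold higher. The suffix of 1421679_a_at marks probes that read several transcripts of 1 gene. Both probe sets thus pointed the same way. Ordered from the highest difference down, Cdkn1a stood at position 6 of 11636 measured genes.

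At 1.5-fold, 1 of the 7 measured members was higher in the double knockout pool, Cdkn1a, against 0.37% of all measured genes. No member was 1.5-fold lower, against 0.773% of all measured genes. Of 5229 genes with at least 2 measured probe sets, Cdkn1a alone had every one of them 1.5-fold or more higher. That is 0.0191%, with bounds counted. The dimmer Cdkn1a probe set entered this count through the double knockout array, the only array on which it reached the floor. Cdkn1a had 1 probe set measured on both arrays, so a count requiring both arrays would leave it out. These shares describe the contrast on which Cdkn1a was chosen. With the floor raised to the 75th percentile of signals, a signal of 596.2, the Cdkn1a control reading lay under it and the difference became a bound of 0.55 log2, below 1.5-fold.

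Mdm2, the ubiquitin ligase that degrades p53, gave probe sets in both directions. The brightest, 1423605_a_at, read 1347.5 in the double knockout pool and 1042.2 in the control pool, 1.29-fold higher. The second, 1427718_a_at, read 473.4 in the double knockout pool and 533.7 in the control pool, 1.13-fold lower. Their mean difference was 0.10 ± 0.38 (SD, 2 probe sets), so the spread between probe sets was larger than the mean. The third probe set, 1457929_at, stayed under the floor, at 116.4 in the double knockout pool and 108.0 in the control pool. The probe sets of Mdm2 thus share no single direction.

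Ccng1, cyclin G1, a p53 target that takes part in the feedback on p53 and Mdm2, was nearly level on all 3 probe sets. The brightest, 1420827_a_at, read 1649.2 in the double knockout pool and 1677.8 in the control pool. The probe set 1450017_at read 1131.0 in the double knockout pool and 1070.2 in the control pool. The third, 1450016_at, read 944.6 in the double knockout pool and 974.6 in the control pool. The mean of the 3 differences was -0.00046 ± 0.067 (SD, 3 probe sets). That spread between probe sets was smaller than the 0.38 of Mdm2.

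Sesn2, sestrin 2, which restrains mTORC1 signalling under stress, read 184.0 in the double knockout pool and 198.7 in the control pool on 1425139_at, 1.08-fold lower. Both readings lay just above the floor. Its second probe set, 1451599_at, was under the floor, at 91.8 in the double knockout pool and 110.2 in the control pool.

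Among the genes that act in apoptosis, members differed in direction. Perp, a tetraspan membrane protein of desmosomes and an effector of p53-dependent death, read 313.5 in the double knockout pool and 253.3 in the control pool on its only probe set, 1.23-fold higher. Trp53inp1, a nuclear stress protein that promotes p53 activity, read 701.1 in the double knockout pool and 570.6 in the control pool on 1416926_at, also 1.23-fold higher. Its second probe set, 1416927_at, read 96.7 in the double knockout pool and 111.1 in the control pool, under the floor on both arrays and in the opposite order. Perp and Trp53inp1 therefore each rest on 1 measured probe set.

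The BH3-only genes, whose products neutralise anti-apoptotic BCL-2 proteins, were Bbc3 and Pmaip1. Bbc3, which encodes PUMA, read 567.8 in the double knockout pool and 618.2 in the control pool on its only probe set, 1.09-fold lower. Pmaip1, which encodes NOXA, read 105.3 in the double knockout pool and 46.7 in the control pool on its only probe set. Both readings of Pmaip1 were under the floor, so no fold is given for it at this floor. With the floor lowered to the 25th percentile, a signal of 56.2, Pmaip1 was at least 1.89-fold higher, a bound of 0.92 log2. At that floor the Cdkn1a probe sets differed by 0.81 log2 (1424638_at, the brighter) and 1.14 log2 (1421679_a_at). The Pmaip1 value is a lower bound from dim readings, so it cannot be ranked against the 1.14. The count of members past 1.5-fold was then 2. With that floor 217 of 15356 measured genes were 1.5-fold higher and 607 lower, against 43 and 90 of 11636 at the main floor.

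**Figure D2:**
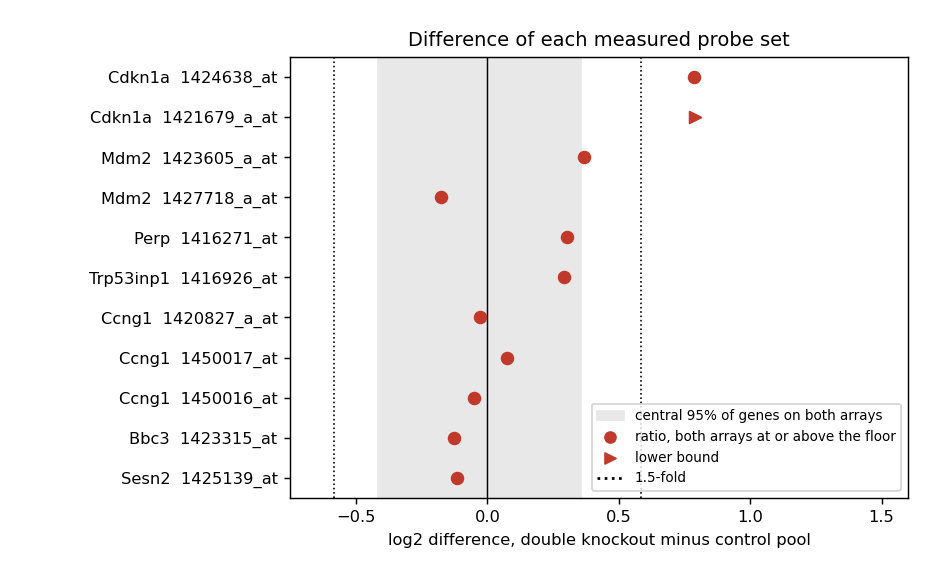
Log2 difference, double knockout minus control pool, of the 11 member probe sets measured on at least 1 array, with a triangle for the lower bound, dotted lines at 1.5-fold and the central 95% of all genes on both arrays in grey (-0.42 to 0.36). The Cdkn1a probe sets lie at 0.79, beyond 1.5-fold, 1 Mdm2 probe set lies at 0.37, just beyond the grey band, and the other 8 lie inside it.

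By the brightest probe set of each gene, 4 of the 7 measured members were higher in the double knockout pool (Cdkn1a, Mdm2, Perp and Trp53inp1) and 3 lower (Ccng1, Bbc3 and Sesn2). Mdm2 is counted here by that probe set only, since its other measured probe set pointed the other way, and leaving it aside makes 3 higher and 3 lower. Of all measured genes 52.9% were higher, so the split is near that of the array as a whole. The members had a median of 0.29 log2, against 0.01 over all measured genes. The median is carried by few genes and by the choice of probe set. It was 0.13 without Cdkn1a, 0.10 when the probe sets of a gene were averaged, and 0.076 over the 11 measured probe sets, 6 of them higher and 5 lower.

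Differences were wider among dim genes than among bright ones. The genes measured on both arrays were divided by mean signal into 3 groups of 3671. In the middle group, between 519.3 and 1237, the central 95% of differences ran from -0.37 to 0.35. Cdkn1a at 0.79 lay outside that range and Mdm2 at 0.37 just outside it, while Trp53inp1 at 0.29 and Bbc3 at -0.13 lay inside. In the dimmest group the range was -0.52 to 0.43, and Perp at 0.30 and Sesn2 at -0.11 lay inside it. Ccng1 at -0.03 lay inside the range of the brightest group, -0.25 to 0.26.

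**Figure D3:**
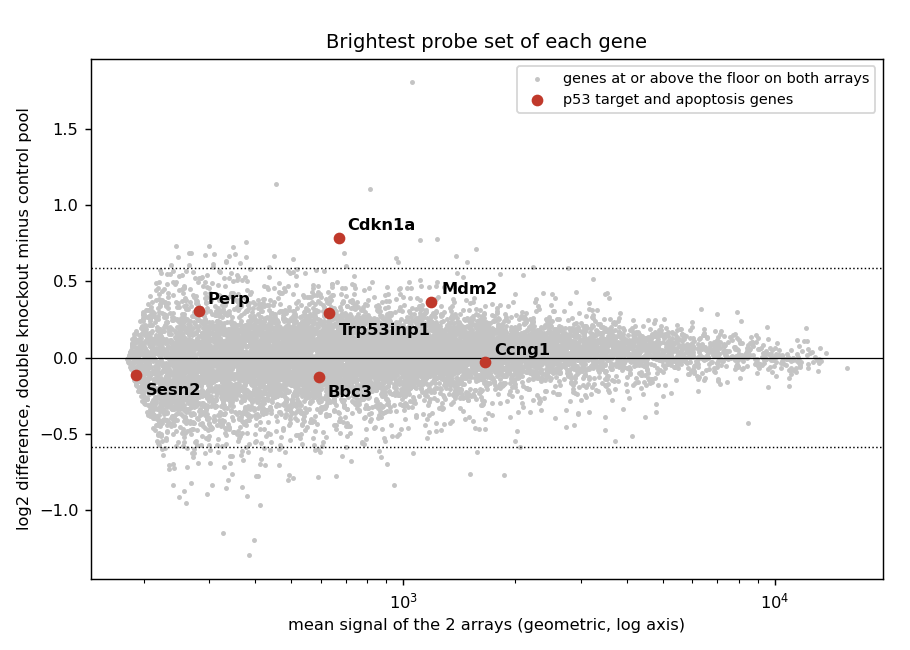
Log2 difference, double knockout minus control pool, against mean signal (log axis) for the brightest probe set of each gene measured in both pools (grey), with the 7 measured members in red and dotted lines at 1.5-fold. Cdkn1a lies at 0.79, above the dotted line that 9 genes of the middle signal group, itself included, passed, and the other 6 members lie between the lines.

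Other genes known as p53 targets differed less than Cdkn1a, which had been chosen for its difference. Of 40 listed genes 30 were measured, 17 higher and 13 lower in the double knockout pool, with a median of 0.02 log2. None passed 1.5-fold in either direction, against 0.37% of all measured genes higher and 0.773% lower. With shares this small, 0 is the likely count in a list of this length. The same holds for the lists below. Plk3, a stress-responsive polo-like kinase, was the highest at 0.41, with readings of 276.6 in the double knockout pool and 207.4 in the control pool. Tigar, which lowers glycolytic flux, was the lowest at -0.48, with 489.2 in the double knockout pool and 682.1 in the control pool. Pidd1, a scaffold that activates caspase-2, differed by -0.37, and Cd82, a tetraspanin, by a mean of -0.35 ± 0.06 (SD, 2 probe sets). Gadd45a, Fas, Tnfrsf10b and Eda2r stayed under the floor on both arrays.

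Genes that control p53 or belong to its family had a median of 0.06 over 20 measured genes, 12 higher and 8 lower, with none past 1.5-fold. Mdm4, the Mdm2 relative that masks the activation domain of p53, differed by 0.16. Chek2, the checkpoint kinase that phosphorylates p53 after double-strand breaks, differed by -0.29, with 216.1 in the double knockout pool and 264.1 in the control pool. Trp53bp2, which steers p53 towards apoptotic targets, had a mean of -0.22 ± 0.08 (SD, 2 probe sets), and the acetyltransferase Kat5 a mean of -0.11 ± 0.08 (SD, 2 probe sets). Trp63, Trp73 and Cdkn2a stayed under the floor on both arrays.

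The machinery of apoptosis around Bbc3 and Pmaip1 was close to level. The 4 measured anti-apoptotic BCL-2 genes lay between -0.05 and 0.06. Mcl1, which NOXA binds, had a mean of -0.02 ± 0.07 (SD, 6 probe sets), Bcl2 a mean of -0.03 ± 0.06 (SD, 4 probe sets), Bcl2l1 a mean of 0.02 ± 0.19 (SD, 3 probe sets), and Bcl2l2 a value of 0.04. The 8 measured pro-apoptotic members had a median of -0.01, 4 higher and 4 lower by the brightest probe set. Bcl2l11 is counted as lower by that probe set, at -0.15. With the probe sets of a gene averaged, 5 were higher. Bak1, the pore-forming partner of Bax, differed by -0.19, Bad by a mean of 0.11 ± 0.13 (SD, 2 probe sets), Hrk by a mean of 0.15 ± 0.09 (SD, 2 probe sets), and Bcl2l11, which encodes BIM, by a mean of 0.01 ± 0.14 (SD, 3 probe sets).

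Downstream of mitochondria, 13 genes of the caspases and the apoptosome were measured, 7 higher and 6 lower, with a median of 0.02 and none past 1.5-fold. Diablo, which releases caspases from IAP proteins, was the highest at 0.42, with 689.5 in the double knockout pool and 514.2 in the control pool. Casp9, the initiator caspase of the apoptosome, differed by -0.37 on its brightest probe set and by a mean of -0.16 ± 0.30 (SD, 2 probe sets). Casp8 differed by 0.26, and Parp1, a caspase substrate, by 0.26 on the brightest of its probe sets, which averaged -0.01 ± 0.34 (SD, 4 probe sets). IAP proteins and caspase inhibitors had a median of 0.04 over 6 genes, 4 higher and 2 lower by the brightest probe set. Birc3 and Birc5, named because they reached the floor on the double knockout array only, are bounds counted as higher. Xiap is counted as higher by its brightest probe set, at 0.08. Cflar, the inhibitor of caspase-8, differed by -0.25, Birc2 by -0.04, Xiap by a mean of -0.06 ± 0.19 (SD, 2 probe sets) and Birc6 by a mean of 0.20 ± 0.17 (SD, 4 probe sets). Of 10 genes of death receptors, a ligand and adaptors with a probe set, 3 were measured. They were the adaptor Fadd at -0.09 and the receptors Tnfrsf1a at 0.19 and Tnfrsf21 at a mean of -0.20 ± 0.10 (SD, 2 probe sets).

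**Figure D4:**
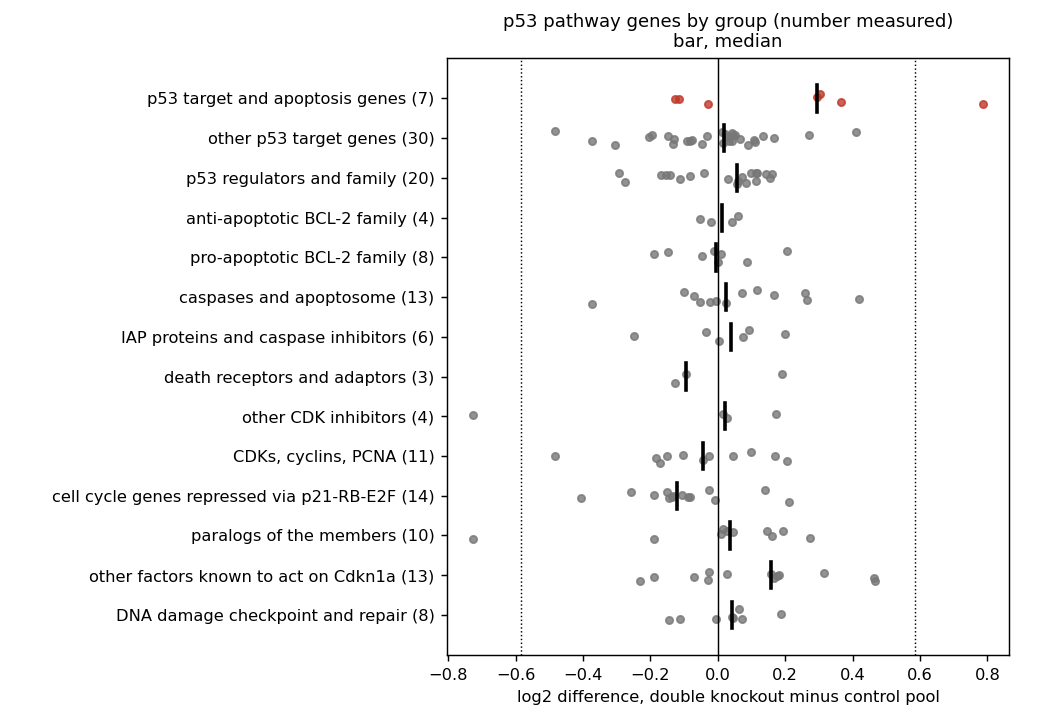
Log2 difference, double knockout minus control pool, of the measured genes (points) of the p53 target and apoptosis genes and of 13 gene lists around them, with the number measured in brackets, the median as a bar and dotted lines at 1.5-fold. Cdkn1a on the first line and Cdkn1c, which appears under CDK inhibitors and under paralogs, are the 2 genes past 1.5-fold, in opposite directions.

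The inhibitors related to p21 differed among themselves. Cdkn1c, which encodes p57, a Cip/Kip family inhibitor with a role in leaving the cell cycle, was lower by 0.73 log2, with 187.7 in the double knockout pool and 309.9 in the control pool. That is 1.66-fold lower, past the threshold that 0.773% of measured genes passed. It rests on 1 probe set, and its double knockout reading lay near the floor. Cdkn1b, which encodes p27, was bright and level, with 1708.2 in the double knockout pool and 1670.4 in the control pool. The INK4 inhibitors Cdkn2c and Cdkn2d differed by 0.17 and 0.02, and Cdkn2a, Cdkn2b and Cdkn3 stayed under the floor. Among other paralogs of the members, Sesn3 had a mean of 0.32 ± 0.18 (SD, 2 probe sets) and Pmp22, a relative of Perp, differed by 0.27. Of the 10 measured paralogs 8 were higher and 2 lower, or 5 higher after quantile normalization or loess centring.

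The proteins that p21 binds, CDKs, cyclins and PCNA, had a median of -0.04 over 11 genes, 4 higher and 7 lower, with none past 1.5-fold. Cdk1, the mitotic kinase, differed by -0.48, with 304.5 in the double knockout pool and 424.9 in the control pool. The G1 cyclins Ccne1 and Ccne2 differed by a mean of -0.32 ± 0.19 (SD, 2 probe sets) and by -0.17, and Ccna2 by a mean of 0.14 ± 0.09 (SD, 2 probe sets). Cell cycle genes known to be repressed through p21, RB and E2F were lower in 12 of 14 measured cases, with a median of -0.12. Of all 11636 measured genes 5480 were lower. Plk1 and Aurkb, named because they reached the floor on the control array only, are bounds counted among the lower genes. A link of this list to Cdkn1a was not tested. The helicase subunit Mcm2 had a mean of -0.39 ± 0.03 (SD, 2 probe sets), E2f1 differed by -0.19 and Mcm3 by -0.14. Mcm6 went the other way with a mean of 0.22 ± 0.01 (SD, 2 probe sets), and Rrm2, named because it is the other higher member, differed by 0.14. None passed 1.5-fold. The size of the median depended on the setting. It was -0.045 under quantile normalization and -0.067 under loess centring, with 4 and 3 genes higher in place of 2. Without probe sets of shared-transcript suffix it was -0.062, and with a pseudocount -0.068. The lower floor gave 6 genes higher and no floor gave 5, while the higher floor gave 0. These counts are not out of 14, since the floor changes which genes are measured. At the higher floor only Foxm1 and Mcm2 of this list were measured.

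The targeted genes were lower in the double knockout pool. Mrtfb read 2481.8 in the double knockout pool and 3358.9 in the control pool on its brightest probe set, 1.36-fold lower. Mrtfa, labelled null in both pools, read 262.4 in the double knockout pool and 601.6 in the control pool, 2.30-fold lower. By label the pools should read alike for Mrtfa, and they did not, for a reason that was not tested. No source used here says whether the Mrtfa and Mrtfb probe sets lie in the deleted segments. Srf differed by -0.31 on its brightest probe set.

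Cell type markers also differed between the pools. Cortical markers were all present, with 7 of 7 annotated genes measured and a median of 0.14. Neuron markers were higher in 5 of 6 cases, with summed signals of 51532.8 in the double knockout pool and 48900.7 in the control pool. Their median was 0.08, and Dcx, doublecortin, had the widest difference at a mean of 0.34 ± 0.14 (SD, 4 probe sets). Astrocyte and radial glia markers were higher in 5 of 8, with sums of 23314.3 in the double knockout pool and 22571.4 in the control pool. Their median was 0.03. Fabp7, Sox9 and Hes5, named as the lower genes of this list, differed by -0.10, -0.20 and -0.26 on the brightest probe set. Gfap, whose promoter names the Cre transgene, read 2753.0 in the double knockout pool and 1822.5 in the control pool, 1.51-fold higher. The Gfap probe sets averaged 0.58 ± 0.01 (SD, 2 probe sets). Microglia and macrophage markers were higher in 7 of 9 cases, with summed signals of 7020.7 in the double knockout pool and 5966.0 in the control pool. Markers of meninges and fibroblasts were higher in 10 of 10 cases, with sums of 9989.7 in the double knockout pool and 7797.0 in the control pool. Endothelial and pericyte markers were higher in 4 of 8, with sums of 7839.1 in the double knockout pool and 7380.3 in the control pool. Oligodendrocyte markers were lower in 6 of 7, with sums of 15536.6 in the double knockout pool and 19061.8 in the control pool. Striatal markers were lower in 7 of 7, with sums of 5917.8 in the double knockout pool and 7487.6 in the control pool. No marker had a signal of 0, and the red blood cell and the T and B cell markers with a probe set, 2 and 3 genes, all stayed under the floor. Their part in the Cdkn1a and Cdkn1c differences was not tested. In bulk RNA, more cells of a type and more RNA per cell cannot be told apart.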

How the data were processed

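RNA of 3 animals per group was pooled before labelling, per the labels' protocols, and 1 array was run per group. The authors computed MAS5 intensity signals, per the submitters' processing notes, with a version not given in the sources used here. The deposited intensity values share a 2% trimmed mean of 500.0 on both arrays, and 0 columns belonged to no listed sample. Arrays give no read depth, and their number limits the precision.

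Probe sets were named from the platform annotation table (34945 with 1 gene, 932 with several, 9160 with none). Signals were centred on the median log2 difference of probe sets bright on both arrays (a shift of 0.0037), floored at 178.9 and compared on the log2 scale. With 1 array a group no test was made, and 1.5-fold is a descriptive threshold. The calculation was tested on simulated data. Python 3.11.15, numpy 2.4.6, pandas 2.3.3, statsmodels 0.14.6 and matplotlib 3.10.9 were used.

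The members, the 13 pathway lists and the 10 marker lists were chosen with earlier results of these data known. Named genes were all members, genes of a pathway list past 1.5-fold on both arrays and up to 4 per list with the largest difference on both arrays, and Mrtfa, Mrtfb and Srf. Genes named outside this rule are said to be so, or are listed as under the floor. Alternatives varied the centring, normalization, floor and choice of probe set.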

Additional observations from a re-analysis of the deposited data

How the results depend on the processing

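Wherever it was measured, the value of each member gene kept its sign under the 10 other settings except for Ccng1, which lay between -0.06 and 0.076. The 2 measured probe sets of Mdm2 kept opposite signs, at 0.32 to 0.39 and -0.18 to -0.13. Cdkn1a lay between 0.62 (pseudocount equal to the floor) and 0.81 log2 apart from the floor at the 75th percentile, where it was a bound of 0.55 and 0 members passed 1.5-fold. With the floor at the 25th percentile, or with no floor, 2 members passed it, Cdkn1a and Pmaip1. Many more genes passed 1.5-fold in these settings. At the 25th percentile 217 of 15356 genes were higher and 607 lower, and with no floor 742 of 18193 were higher and 1874 lower. Averaging the probe sets of each gene brought the members' median to 0.10 and Mdm2 to 0.10. Alternatives chosen after seeing the data gave a median of 0.13 without Cdkn1a, and 0.076 with 6 higher and 5 lower over probe sets. Over all measured genes, 43 were 1.5-fold higher and 90 lower, or 68 higher and 70 lower under quantile normalization, and 61 higher and 72 lower under loess centring. No paired analysis was possible because each group has 1 array. Leaving out a replicate was not possible either, and low signal limits Pmaip1, Sesn2 and the dimmer probe sets of Mdm2 and Trp53inp1.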

Other observations

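Transcription factors other than p53 that are known to act on Cdkn1a had a median of 0.16 log2 over 13 measured genes, 8 higher and 5 lower in the double knockout pool, with none past 1.5-fold. Sp1, which binds GC boxes, had a mean of 0.35 ± 0.16 (SD, 2 probe sets), its brightest probe set reading 1061.6 in the double knockout pool and 767.4 in the control pool. Klf6 differed by 0.47 on its brightest probe set and by a mean of 0.12 ± 0.38 (SD, 4 probe sets). Stat3 had a mean of 0.11 ± 0.29 (SD, 2 probe sets) and Smad2 a mean of -0.14 ± 0.13 (SD, 2 probe sets). Over the other settings the median of these factors ran from 0.03 to 0.16.

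DNA damage checkpoint and repair genes had a median of 0.04 over 8 measured genes, 5 higher and 3 lower, with none past 1.5-fold. Fancd2, Lig4, Brca2 and Rad50 differed by 0.19, 0.07, -0.11 and -0.14. The 10 measured genes flanking Cdkn1a on chromosome 17, the same number on each side in map order, lay between -0.27 and 0.38. Of these 0 passed 1.5-fold. Pxt1 among them reached the floor on 1 array only, so its 0.01 is a bound.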
